A study of Homo sapiens with 26 samples.

Results

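The experiment described here is the knockout of POU2F3 in NCI-H526, a small cell lung cancer line, read out as RNA 5 days after infection. It takes 3 of the 26 libraries of the series: cells infected with either of 2 POU2F3 guide RNAs (sgPOU2F3 e10.1 and e10.2) and cells infected with a control guide (sgNeg). Uninfected, exponentially growing NCI-H526 cells (parental) served as a second baseline. The authors deposited the 2 POU2F3 guides as 1 combined column, so with the parental library there are 3 columns of FPKM, read fragments scaled to the transcript's length and the library's depth. Genes were taken where the FPKM was at least 1 in the sgPOU2F3 or the sgNeg column, which kept 12506 of the 19128 genes in the table and left 6622 below that minimum. Each gene was compared as the difference of log2(FPKM + 1), sgPOU2F3 minus sgNeg, a scale that understates the change of genes near 0.

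The series asked what POU2F3 controls in small cell lines that express it, and ran the same knockout in COR-L311, NCI-H1048 and NCI-H211. The sgPOU2F3 and sgNeg cells were infected by lentivirus and the parental cells were not. PolyA RNA was sequenced. The labels give the medium as RPMI with serum or HITES without saying which an NCI-H526 library had. NCI-H526 is 1 line, and each arm is 1 deposited value with no replicate, so the results below are sizes with no p-value, and no spread between cultures is known. A bulk value cannot tell fewer cells that express a gene from less RNA per cell.

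POU2F3 is a POU-domain transcription factor that binds the octamer motif in DNA. It is required for tuft cells, the chemosensory cells of airway and gut epithelia, which use taste-like G protein signaling, make eicosanoids and acetylcholine, and carry an actin-rich apical brush. A subset of small cell lung cancers expresses POU2F3 and other tuft cell genes in place of neuroendocrine factors such as NEUROD1, and POU2F3 acts with coactivators that are encoded in a cluster on chromosome 11.

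POU2F3 RNA was 501 FPKM in sgNeg, 204 FPKM in sgPOU2F3 and 387 FPKM in parental cells. The knockout column was thus the lowest of the 3, at 40.7% of sgNeg, a difference of -1.29 on the log2 scale. Guides that cut the coding sequence can leave RNA in place, so this value does not measure the protein. The line carried the markers of the tuft-like class in all 3 columns: ASCL2, a bHLH factor, was between 125 and 186 FPKM, AVIL, the actin-bundling advillin, between 152 and 354, SOX9 between 111 and 194 and TRPM5, the cation channel of taste cells, between 15.49 and 48.0. YAP1 stayed below 1 FPKM in each. The neuroendocrine markers INSM1 (80.7 to 138 FPKM), CHGA (55.2 to 73.5 FPKM) and SYP (58.0 to 78.3 FPKM) were present as well. Markers of blood, fibroblast and endothelial cells were mostly at or near 0. Of 11 blood cell markers 3 reached 1 FPKM in sgNeg or sgPOU2F3, and the highest was CD79A, a B cell receptor chain, at 0.967 FPKM in sgNeg, 3.07 in sgPOU2F3 and 2.25 in parental cells, 2-fold higher against sgNeg; PTPRC and HBB were listed at 0 in all 3 columns. Of 10 fibroblast and endothelial markers 1 did, TAGLN, an actin-binding protein, at 5.26, 7.69 and 6.31 FPKM, while COL3A1 and PECAM1 were under 1. The part of these markers in the results was not tested.

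Against sgNeg, 62 of 12506 genes (0.496%) were lower by 2-fold or more and 256 (2.05%) were higher by 2-fold or more. The median difference over all genes was -0.018. The lowest difference was -2.13 and the highest 4.56, and past 4-fold there was 1 gene lower against 37 higher. The lower genes were mostly well expressed in the control: 45 of 62 had at least 10 FPKM in sgNeg and 16 at least 100 FPKM, and their median went from 33.6 to 14.8 FPKM. On this scale a gene under 1 FPKM in sgNeg cannot be 2-fold lower, so these levels are in part set by the measure. The higher genes were often low in the control. Of 256, 120 (46.9%) were under 1 FPKM in sgNeg, against 3.32% of all genes, and 11 were listed at 0. Such genes passed the FPKM minimum through the sgPOU2F3 column, so this share is in part set by the filter. Their median went from 1.16 to 5.59 FPKM, with 84 reaching 10 FPKM and 6 reaching 100 FPKM after knockout. At the 2-fold edge, PLCG2 (46.5 to 22.7 FPKM) and TLE4 (4.67 to 1.83 FPKM) were just inside on the lower side and SLC18A3 (8.74 to 3.89 FPKM) just outside. On the higher side BNC2 (5.37 to 11.8 FPKM) was just inside and SERPINF1 (3.24 to 7.48 FPKM) just outside.

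**Figure D1:**
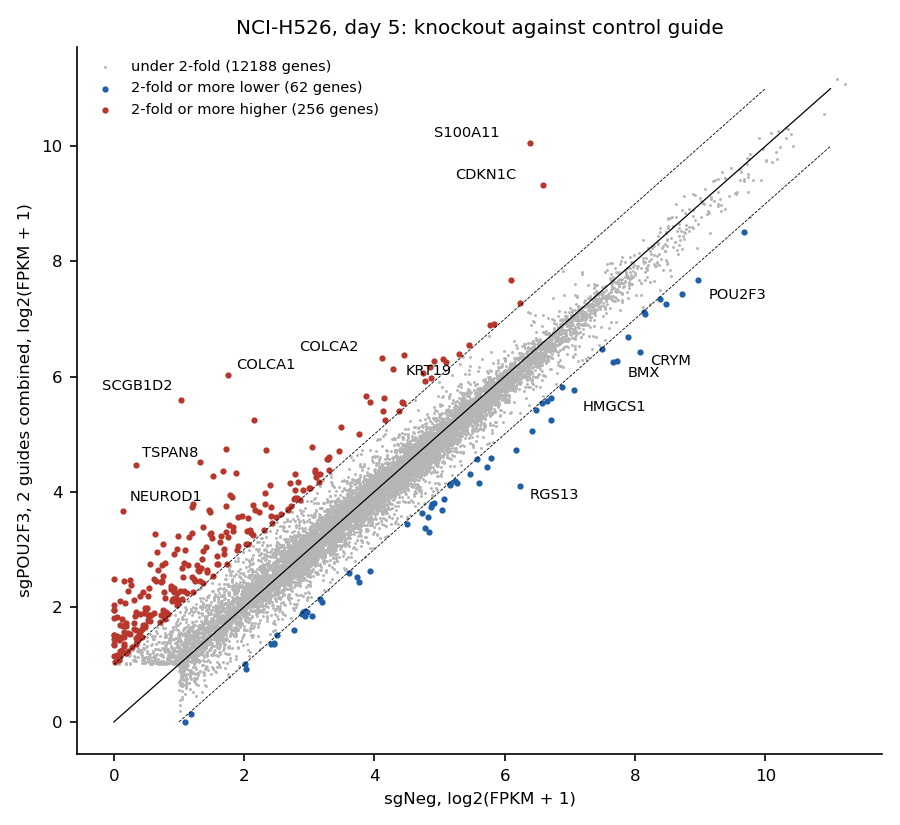
Each point is a gene, placed by its sgNeg level (x) and its sgPOU2F3 level (y), both as log2(FPKM + 1). The solid line marks equal levels and the dashed lines 2-fold. The 256 higher genes (red) gather at the low end of the x axis. The 62 lower genes (blue) lie mostly further right, up to POU2F3 and beyond. On this scale a gene under 1 FPKM in sgNeg cannot be 2-fold lower.

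The uninfected parental library served as a second baseline. It comes from another table, and its distance from sgNeg is the only measure here of how far 2 unedited NCI-H526 libraries lie apart. That distance was larger than the one between the arms: the SD of the difference over genes was 0.37 for sgPOU2F3 against sgNeg, 0.51 for sgNeg against parental and 0.56 for sgPOU2F3 against parental. With the same genes, sgNeg was 2-fold lower than parental in 310 genes (2.48%) and 2-fold higher in 355 (2.84%), and sgPOU2F3 was 2-fold lower than parental in 337 (2.69%) and 2-fold higher in 527 (4.21%). The 2 comparisons of sgPOU2F3 share that column.

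Past 2-fold against both baselines were 20 genes lower (0.16%) and 186 higher (1.49%). The higher genes were thus still 2-fold higher against the second baseline in 72.7% of cases, and the lower genes in 32.3%. Of the remaining lower genes, 28 were below the parental level by less than 2-fold and 14 were above it. Of the remaining higher genes, 53 were above it by less than 2-fold and 17 were below it. The knockout column lay below both controls in 48 of the 62 lower genes (77.4%, against 28.5% of all genes). It lay above both in 239 of the 256 higher genes (93.4%, against 32.1% of all genes). The side of sgNeg is given by the choice of genes, so these shares are high in part by that choice. In 16 of the lower genes sgNeg itself was at least 2-fold above parental, and in 23 of the higher genes at least 2-fold below it.

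RGS13, a regulator that shuts off G protein signaling and a tuft cell marker, had the lowest difference. It was at 73.9 FPKM in sgNeg, 16.1 in sgPOU2F3 and 55.9 in parental cells, a difference of -2.13 against sgNeg and -1.74 against parental, so that the knockout column was far below both controls. CRYM, the thyroid hormone-binding mu-crystallin, was at 269 FPKM in sgNeg and 84.6 in sgPOU2F3 (-1.66), but the parental value was 114 FPKM, which leaves -0.43 against that baseline. BMX, a TEC family tyrosine kinase, was at 210 FPKM in sgNeg and 207 in parental cells and at 76.4 after knockout, a difference of -1.45 and -1.43. LRMP, an endoplasmic reticulum protein that regulates calcium release, was at 419 FPKM in both controls and 172 after knockout (-1.28). For BMX and LRMP the controls coincided, so either baseline gave nearly the same difference. PSD2, an exchange factor for ARF6, was at 201 FPKM in sgNeg, 75.5 in sgPOU2F3 and 111 in parental cells (-1.40).

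**Figure D2:**
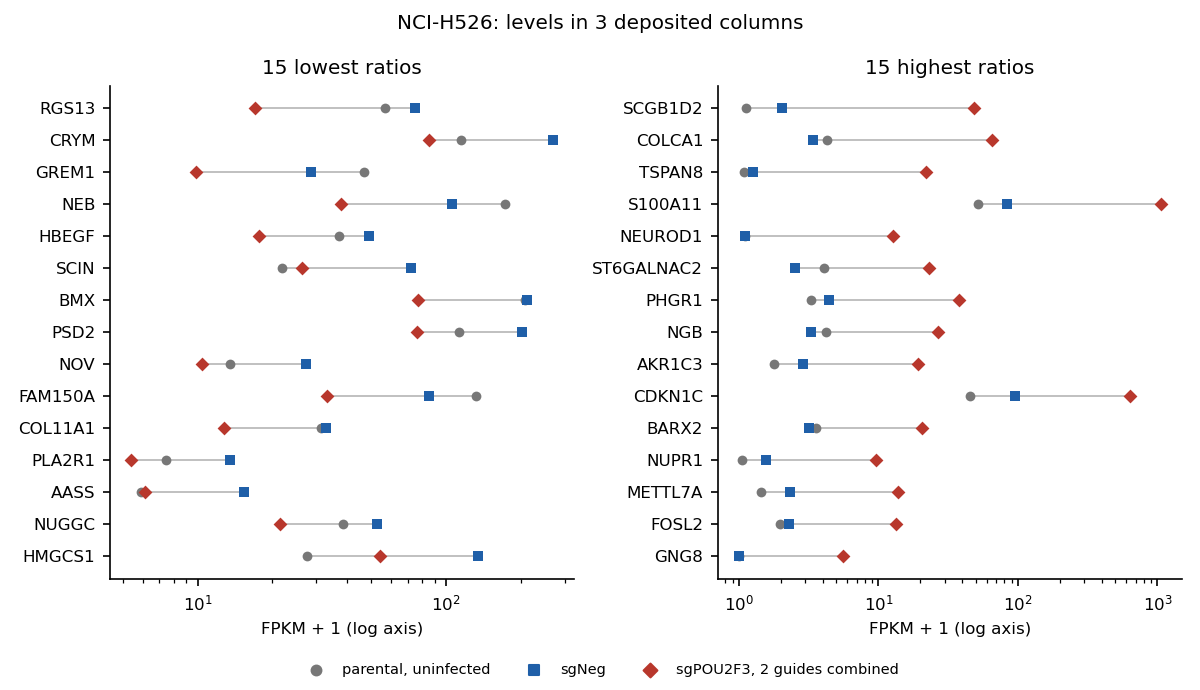
Levels as FPKM + 1 on a log axis for the 15 genes with the lowest and the 15 with the highest difference against sgNeg. Grey circles are parental cells, blue squares sgNeg and red diamonds sgPOU2F3. On the right the red diamond stands apart from both controls for every gene. On the left the grey circle reaches the red diamond for AASS and lies left of it for SCIN and HMGCS1.

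Several other genes among the 15 lowest encode secreted ligands, matrix or filament proteins. GREM1, a secreted antagonist of BMPs, was at 27.6 FPKM in sgNeg, 8.89 after knockout and 45.8 in parental cells (-1.53 against sgNeg, -2.24 against parental). NEB, nebulin, the giant thin filament protein of muscle, was at 104, 36.8 and 172 FPKM in the same order (-1.48 and -2.20). COL11A1, a fibrillar collagen chain, was at 31.9, 11.8 and 30.4 FPKM (-1.36 and -1.29). These 3 were lower against either control by more than 2-fold. FAM150A, which encodes a ligand of the ALK receptor, went from 84.5 FPKM in sgNeg to 32.2, with 130 in parental cells (-1.36 and -1.98). HBEGF, a ligand of the EGF receptor, went from 47.8 to 16.7 FPKM, with 36.1 in parental cells (-1.46 and -1.07). NUGGC, a nuclear GTPase, went from 51.9 to 20.4 FPKM, with 37.4 in parental cells (-1.30 and -0.84).

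For other genes of this group the parental library was closer to the knockout column than to sgNeg. SCIN, the actin-severing scinderin, was at 70.9 FPKM in sgNeg, 25.3 in sgPOU2F3 and 20.8 in parental cells, so its -1.45 against sgNeg turned to 0.27. AASS, an enzyme of lysine breakdown, was at 14.3, 5.13 and 4.89 FPKM. HMGCS1, which makes the HMG-CoA used for cholesterol, was at 133, 53.4 and 26.6 FPKM, -1.30 against sgNeg and 0.98 against parental. NOV, a matricellular protein, and PLA2R1, a receptor for secreted phospholipases, stayed on the lower side of parental by less than 2-fold: NOV was at 26.3, 9.37 and 12.5 FPKM and PLA2R1 at 12.5, 4.40 and 6.49 FPKM.

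Among tuft cell transcription factors, 10 of 11 listed genes were taken, 9 were below sgNeg and 1, POU2F3, passed 2-fold. The median was -0.68 against sgNeg, where the median over all genes was -0.018 and 53.3% of genes were below 0, and it was -0.05 against parental. SPIB, an ETS factor, was at 14.8 FPKM in sgNeg, 7.10 in sgPOU2F3 and 6.56 in parental cells. GFI1B, a zinc finger repressor of tuft and blood cells, was at 66.8, 40.0 and 47.9 FPKM, and the homeobox gene HMX2 at 115, 71.3 and 80.2 FPKM. ASCL2 was at 186, 158 and 125 FPKM. Apart from POU2F3 itself the differences ran from -0.96 for SPIB to 0.36 for RUNX1 (7.89 to 10.4 FPKM), and against parental from -0.25 for GFI1B to 0.34 for ASCL2.

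Tuft cell effectors held more of the lower genes. Of 37 taken from a list of 40, 11 were 2-fold lower (0.496% of all genes), 1 was 2-fold higher (2.05% of all genes), and 30 were below sgNeg (53.3% of all genes). The median was -0.63 against sgNeg and -0.59 against parental. This list, like the others here, was written with earlier results of these data known, so its counts describe the list and are no evidence of enrichment. Beside RGS13, CRYM, BMX, PSD2, LRMP and PLCG2, the lower genes were AVIL (354 to 152 FPKM, parental 310.5), GRASP (99.7 to 46.5, parental 73.2), CHN2 (88.3 to 41.5, parental 74.6), CCDC129 (6.76 to 2.76, parental 7.15) and NMU (334 to 162, parental 571). NMU encodes neuromedin U, a secreted neuropeptide, and CHN2 a GTPase-activating protein for RAC. NMU was the furthest below parental of all of them, at -1.81. Both SH2D6 (28.3 to 15.8 FPKM, parental 28.5) and CHAT, which makes acetylcholine (4.76 to 2.44 FPKM, parental 5.81), were below both controls by less than 2-fold. KIT, the stem cell factor receptor, was at 169 FPKM in sgNeg, 153 after knockout and 138 in parental cells, and IL17RB, the receptor for the cytokine IL-25, at 122, 119 and 192 FPKM. VIL1, villin, was at 95.8, 97.2 and 49.5 FPKM.

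In eicosanoid synthesis 2 of 12 genes taken were 2-fold lower and 1 was higher (0.496% and 2.05% of all genes). PLA2G4A, the phospholipase that frees arachidonic acid, was at 236 FPKM in sgNeg, 102 in sgPOU2F3 and 127.5 in parental cells (-1.21 and -0.33). ALOX5, which starts leukotriene synthesis, was at 28.4, 12.7 and 24.1 FPKM (-1.10 and -0.87), and PTGS1, the constitutive cyclooxygenase, was just under 2-fold at 26.0, 12.8 and 38.3 FPKM (-0.97 and -1.51). HPGD, which inactivates prostaglandins, went the other way, from 1.99 to 6.34 FPKM, with 0.759 in parental cells. Over the list 8 genes were below and 4 above sgNeg, with a median of -0.16. In taste transduction 0 of 15 genes were 2-fold lower and 2 were higher, ITPR3, an inositol trisphosphate receptor (2.73 to 7.36 FPKM, parental 6.61), and TAS2R14, a bitter receptor (0.259 to 1.55 FPKM, parental 0.829). TRPM5 was at 15.49 FPKM in sgNeg, 18.8 after knockout and 48.0 in parental cells, so that both infected columns were low.

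POU2F3 binds an octamer, so windows around start sites were searched for ATGCAAAT on either strand, from 250 bases before to 50 after each start site in RefSeq (GRCh38.p14). The motif was in 623 of 35116 such windows, 1.77%. A window was found for 77.4% of the lower and 72.7% of the higher genes, too few for a comparison of shares, which is void here. Of genes with a window, 3 of 48 lower, 11 of 186 higher and 201 of all 10230 taken held it in at least 1 window. These counts are per gene, unlike the share per window above, and are listed without a comparison. Shown are the 3 among lower genes and, of the 11 among higher genes, the 2 whose levels are described here, CALCA and ITPR3, to let a reader see the motif in genes named. The capitals mark the octamer as read on the gene's strand, and each stretch lies upstream of the start site.
BMX (chrX:15507234-15507301, + strand): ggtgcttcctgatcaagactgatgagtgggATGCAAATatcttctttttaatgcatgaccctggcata
HTR3E (chr3:184100007-184100074, + strand): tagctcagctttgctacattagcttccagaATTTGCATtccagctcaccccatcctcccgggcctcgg
MEF2C (chr5:88824367-88824434, - strand): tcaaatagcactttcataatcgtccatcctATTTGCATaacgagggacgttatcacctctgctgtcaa
CALCA (chr11:14972481-14972548, - strand): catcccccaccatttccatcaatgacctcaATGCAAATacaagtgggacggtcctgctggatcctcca
ITPR3 (chr6:33621269-33621321, + strand): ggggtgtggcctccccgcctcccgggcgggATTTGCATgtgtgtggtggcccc
In BMX the octamer ends 36 bases before the start site, in HTR3E 134, in MEF2C 52, in CALCA 159 and in ITPR3 15. HTR3E, a subunit of the serotonin-gated channel, was at 3.06 FPKM in sgNeg and 0.882 after knockout, and MEF2C, a MADS-box factor, was 2-fold lower as well. CALCA and ITPR3 were higher, so the same letters occur upstream of genes that differed in either direction. A match is a description of the sequence, not a shown binding site.

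The coactivator genes stood on both sides. In the RefSeq order on chromosome 11 (GRCh38.p14), C11orf53 is followed by COLCA1, COLCA2 and, after 2 noncoding genes, POU2AF1. C11orf53, which encodes the coactivator OCA-T1, was at 271 FPKM in sgNeg, 170 in sgPOU2F3 and 248 in parental cells, -0.67 against sgNeg. COLCA1 was at 2.38 FPKM in sgNeg, 64.0 in sgPOU2F3 and 3.28 in parental cells, a difference of 4.27. COLCA2, which encodes the coactivator OCA-T2, was at 16.4, 79.4 and 21.3 FPKM (2.21). POU2AF1, the coactivator OCA-B of B cells, was at 0.677, 4.48 and 0.485 FPKM (1.71). The 3 genes that were higher had controls close to each other. COLCA1 and COLCA2 overlap on opposite strands over 6491 bases in GENCODE v29, and the sources used here do not say whether reads were assigned by strand, so their reads cannot be told apart. Overlaps of this kind also hold for CRYM with ANKS4B, BMX with PIR, AVIL with TSFM, NEB with RIF1 and OMG with NF1.

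The 15 highest differences included genes of secretory and glandular epithelia. SCGB1D2, a secretoglobin, was at 1.04 FPKM in sgNeg, 47.1 in sgPOU2F3 and 0.126 in parental cells (4.56). TSPAN8, a tetraspanin of epithelial membranes, was at 0.259, 21.0 and 0.0964 FPKM (4.13), and PHGR1, an intestinal epithelial gene, at 3.42, 37.1 and 2.30 FPKM (3.10). S100A11, a calcium-binding protein, was at 82.6, 1058 and 50.5 FPKM (3.66). In all 4 the knockout value was over 10 times either control. ST6GALNAC2, a sialyltransferase of mucin-type glycans, was at 1.51, 21.9 and 3.09 FPKM (3.19). NGB, neuroglobin, was at 2.29, 25.9 and 3.22 FPKM (3.03). BARX2, a homeobox factor, was at 2.18, 19.5 and 2.59 FPKM (2.69).

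Among keratins and epithelial genes 5 of 26 taken were 2-fold higher (2.05% of all genes) and 0 were lower (0.496%), with a median of 0.09 against sgNeg and -0.018 over all genes. The 5 were PHGR1, BARX2, KRT15 (0.110 to 4.45 FPKM, listed at 0 in parental cells), KRT19 (18.5 to 69.5 FPKM, parental 20.5) and MUC1, a membrane mucin (42.9 to 92.5 FPKM, parental 23.0). KRT18 (157 to 134 FPKM) and EPCAM (215 to 223 FPKM) did not follow them. Among integrins, laminins and collagen IV chains 3 of 19 were higher and 0 lower, beside the same shares of all genes, among them LAMB3, a laminin chain of epithelial basement membranes (1.29 to 8.74 FPKM, parental 1.66), and ITGA6, a subunit of laminin-binding integrins (14.3 to 46.2 FPKM, parental 10.7). LAMA3, another laminin chain, was at 1.29, 2.32 and 3.15 FPKM.

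NEUROD1, a bHLH factor that defines another small cell class, was at 0.107 FPKM in sgNeg, 11.6 in sgPOU2F3 and 0.106 in parental cells, a difference of 3.51 against either control. Of 13 neurogenic and neuroendocrine regulators taken, 3 were 2-fold higher (2.05% of all genes) and 0 lower (0.496%). The other two were NHLH1, a bHLH factor (0.559 to 4.45 FPKM, parental 0.278), and NEUROG2, a proneural factor (5.77 to 13.6 FPKM, parental 5.85). INSM1 was at 80.7 FPKM in sgNeg, 138 in sgPOU2F3 and 98.4 in parental cells. Of 25 neuroendocrine effectors 4 were higher and 0 lower, beside the same shares of all genes, with a median of 0.10. CELF3, a splicing regulator, was above both controls (12.6 to 31.0 FPKM, parental 13.4), as was DDC, the decarboxylase of amine synthesis, at a low level (0.0407 to 1.14 FPKM, parental 0.0404). CALCA, the calcitonin gene (0.317 to 2.67 FPKM, parental 4.19), and SCG5, a secretory granule chaperone (7.86 to 17.1 FPKM, parental 19.2), were below parental. CHGA (55.2 to 56.3 FPKM) and SYP (78.3 to 68.3 FPKM) stayed under 2-fold.

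CDKN1C, which encodes the CDK inhibitor p57, was at 95.1 FPKM in sgNeg, 638 in sgPOU2F3 and 44.6 in parental cells (2.73 and 3.81). CDKN1A, which encodes p21, was at 74.3, 155 and 57.6 FPKM (1.05 and 1.41). The other 16 genes taken among CDK inhibitors, RB1 and cyclins D and E stayed under 2-fold, for example CDKN1B at 54.5, 53.3 and 58.1 FPKM. CDKN1C lies in an imprinted region on the short arm of chromosome 11, where the other 10 genes taken stayed under 2-fold, among them PHLDA2 (9.23 to 10.7 FPKM) and SLC22A18 (3.68 to 6.05 FPKM).

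Mitotic genes stood below sgNeg by small amounts. All 33 genes taken were below sgNeg, with a median of -0.46 and 0 past 2-fold, where 53.3% of all genes were below 0. CCNB1, cyclin B1, was at 85.4 FPKM in sgNeg, 53.8 in sgPOU2F3 and 56.0 in parental cells, and NUF2, a kinetochore protein, at 57.1, 36.1 and 74.3 FPKM. Against parental the list's median was -0.07, so sgNeg stood above both other columns. The 35 DNA replication genes taken had a median of 0.09 against sgNeg and 0.08 against parental, with CDT1, a licensing factor, at 27.5, 37.6 and 38.6 FPKM. Of 28 genes for ribosome biogenesis 26 were below sgNeg, with a median of -0.18 and 0 past 2-fold.

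**Figure D3:**
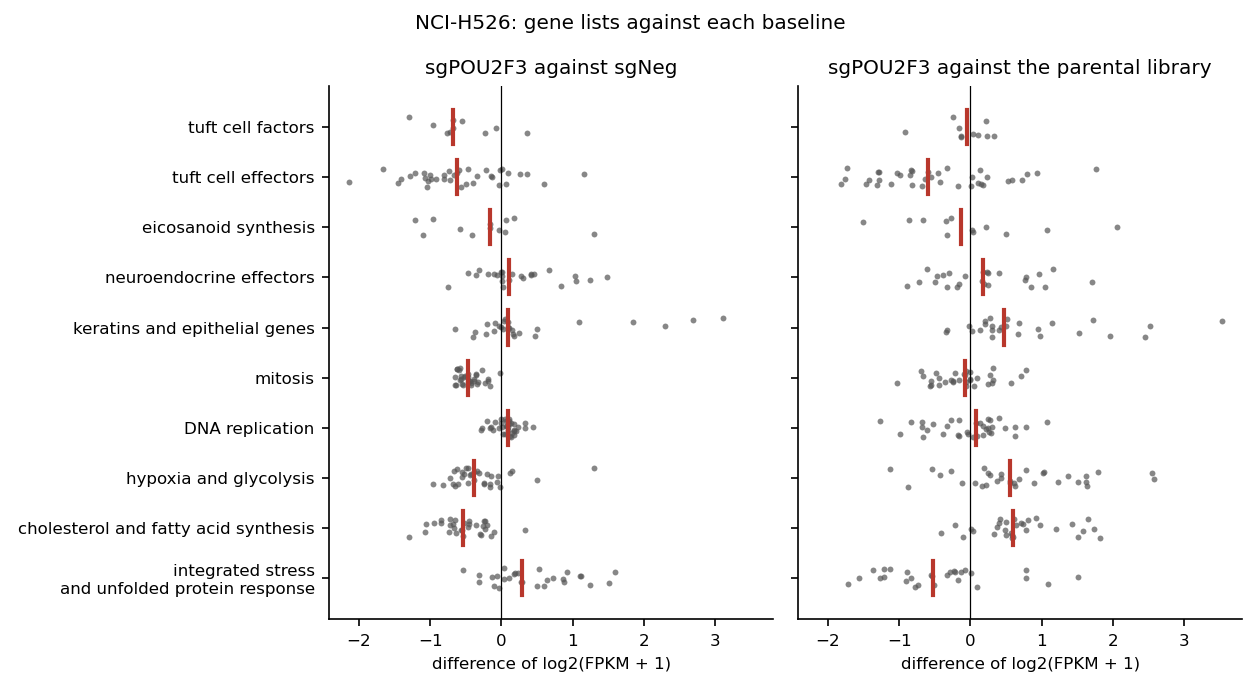
Points are single genes of 10 lists and red bars list medians, as differences of log2(FPKM + 1) against sgNeg (left) and against the parental library (right). The median of tuft cell effectors lies left of 0 in both panels, though 7 of 37 genes were above 0 against sgNeg. The medians of cholesterol, hypoxia and stress genes change side.

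For 3 groups of metabolic and stress genes the direction depended on the control. Of 31 cholesterol and fatty acid genes taken, 30 were below sgNeg (53.3% of all genes) and 3 were 2-fold lower (0.496% of all genes), with a median of -0.54, but the median against parental was 0.60. SCD, the stearoyl-CoA desaturase, was at 283 FPKM in sgNeg, 134 in sgPOU2F3 and 85.7 in parental cells. MSMO1, a sterol oxidase, was at 116, 55.3 and 15.9 FPKM. In both the knockout column lay between the controls, and sgNeg was above parental by a median of 1.14 over the list.

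Hypoxia and glycolysis genes showed the same order, with 29 of 33 below sgNeg, a median of -0.39 against sgNeg and 0.56 against parental. HK2, a hexokinase, was at 17.3 FPKM in sgNeg, 8.41 in sgPOU2F3 and 0.575 in parental cells, and LDHA, lactate dehydrogenase, at 569, 360 and 117 FPKM. NDRG1 was the exception past 2-fold, at 8.69, 22.8 and 3.06 FPKM, above both controls. Integrated stress and unfolded protein genes had the reverse order. Of 28 taken, 5 were 2-fold higher (2.05% of all genes) and 0 lower, with a median of 0.28 against sgNeg and -0.53 against parental. ATF5, a stress-induced factor, was at 67.4, 205 and 527 FPKM, TRIB3, a pseudokinase induced by ATF4, at 32.2, 77.6 and 231 FPKM, and DDIT3, which encodes CHOP, at 28.1, 61.5 and 110 FPKM. ATF3 (2.08, 7.77 and 8.58 FPKM) and the cystine transporter SLC7A11 (1.19, 3.72 and 5.71 FPKM) also stayed below parental. The part of infection, medium and culture state in these differences between the controls was not tested.

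Smaller groups held further higher genes, to be read beside the 2.05% of all genes that were 2-fold higher. FOSL2, an AP-1 subunit, was at 1.29 FPKM in sgNeg, 12.3 in sgPOU2F3 and 0.975 in parental cells (2.53), EGR1 at 0.958, 3.26 and 0.437 FPKM, and 3 of 16 AP-1 and EGR factors were 2-fold higher. Of 22 Notch pathway genes 3 were higher: the ligands JAG1 (3.39, 12.7 and 3.37 FPKM) and DLL4 (1.08, 4.74 and 3.22 FPKM) and the target HES1 (2.72, 6.95 and 1.94 FPKM). ID4 (4.25, 16.3 and 8.12 FPKM) and ID3 (20.6, 46.1 and 24.5 FPKM), inhibitors of bHLH factors, were higher in the list that also holds GREM1. Among receptor tyrosine kinases FGFR1 (1.66, 7.25 and 2.26 FPKM) and FGFR3 (3.99, 12.9 and 8.88 FPKM) were higher, 2 of 12 taken. IGFBP2 (13.6, 49.9 and 11.1 FPKM) and IGFBP5 (0.455, 4.00 and 0.0740 FPKM), which bind insulin-like growth factors, were higher among 10. BMF, a BH3-only protein of apoptosis, was the 1 gene of 14 in the BCL2 family past 2-fold, at 27.8, 70.8 and 18.2 FPKM. FOXI1, the factor of ionocytes, was at 0.662, 5.60 and 0.0989 FPKM, while 12 of 17 genes of its list were under the minimum.

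Among enzymes of detoxification 4 of 24 were 2-fold higher (2.05% of all genes) and 0 lower (0.496%): AKR1C3, an aldo-keto reductase (1.88 FPKM in sgNeg, 18.3 in sgPOU2F3 and 0.788 in parental cells), CYP1A1 (0.721, 5.79 and 0.0495 FPKM), SLC7A11, and AKR1B10, which was listed at 0 in sgNeg and reached 1.54 FPKM. GNG8, a G protein gamma subunit, was listed at 0 in both controls and reached 4.59 FPKM. METTL7A was at 1.31, 12.8 and 0.430 FPKM and NUPR1, a stress-induced nuclear protein, at 0.551, 8.61 and 0.0454 FPKM. Beside mitosis, DNA replication, ribosome biogenesis and the fibroblast and endothelial markers, lists with 0 genes past 2-fold in either direction were annexins (9 taken), YAP and TEAD genes (8), interferon response (20), antigen presentation (20), the MYC family (10) and surface therapy targets (13). In these, MYCN was at 855 FPKM in sgNeg, 588 in sgPOU2F3 and 694 in parental cells, HLA-B at 285, 203 and 344 FPKM, and DLL3, a Notch ligand and drug target, at 35.0, 27.1 and 37.8 FPKM.

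The lower genes were often higher in parental NCI-H526 than in the 10 parental lines outside the knockout experiment, less often than in all 14 lines. In the parental table NCI-H526 was above all 10 lines outside the knockout experiment in 38 of the 62 lower genes (61.3%), against 10.6% of all genes, and it was the first of all 14 lines in 18 (29.03%, against 6.79%). Lower genes had to be expressed in sgNeg of this same line, so high parental levels are in part given by the choice of genes. No test was run on these levels, and all genes are not matched to the lower genes on level. BMX was at 207 FPKM in parental NCI-H526 and at most 0.259 in the 10 other lines. PLA2R1 was at 6.49 against at most 0.212 FPKM, and OMG, a myelin glycoprotein, at 16.2 against at most 0.289 FPKM. CRYM was at 114 against at most 17.8 FPKM. Parental levels in the other knockout lines could be higher: BMX was at 283 FPKM in NCI-H211 and CRYM at 156 in NCI-H1048. PLA2R1 and OMG were highest in NCI-H526 of all 14 lines. HMGCS1, in contrast, was at 26.6 FPKM, below the median of 39.1 in the 10 lines.

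The higher genes were often low in parental NCI-H526, as in sgNeg, with 118 of 256 (46.1%) under 1 FPKM there, against 4.24% of all genes. Genes low in sgNeg passed the FPKM minimum through the sgPOU2F3 column, so this share is not free of the filter either. In 180 (70.3%) at least 1 of the 10 other lines had 10 FPKM or more, against 81.8% of all genes. NEUROD1 was at 289 FPKM in NCI-H524, 135 in NCI-H82 and 114 in NCI-H446, far above the 11.6 FPKM of the knockout column, a comparison across tables. SCGB1D2 reached 42.8 FPKM in NCI-H146 and 41.9 in NCI-H69. S100A11 reached 358 FPKM in NCI-H69 and 297 in DMS79, below the 1058 FPKM of the knockout column. CDKN1C was highest in COR-L311, at 51.0 FPKM, so its 638 FPKM after knockout was above each of the 14 parental lines.

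**Figure D4:**
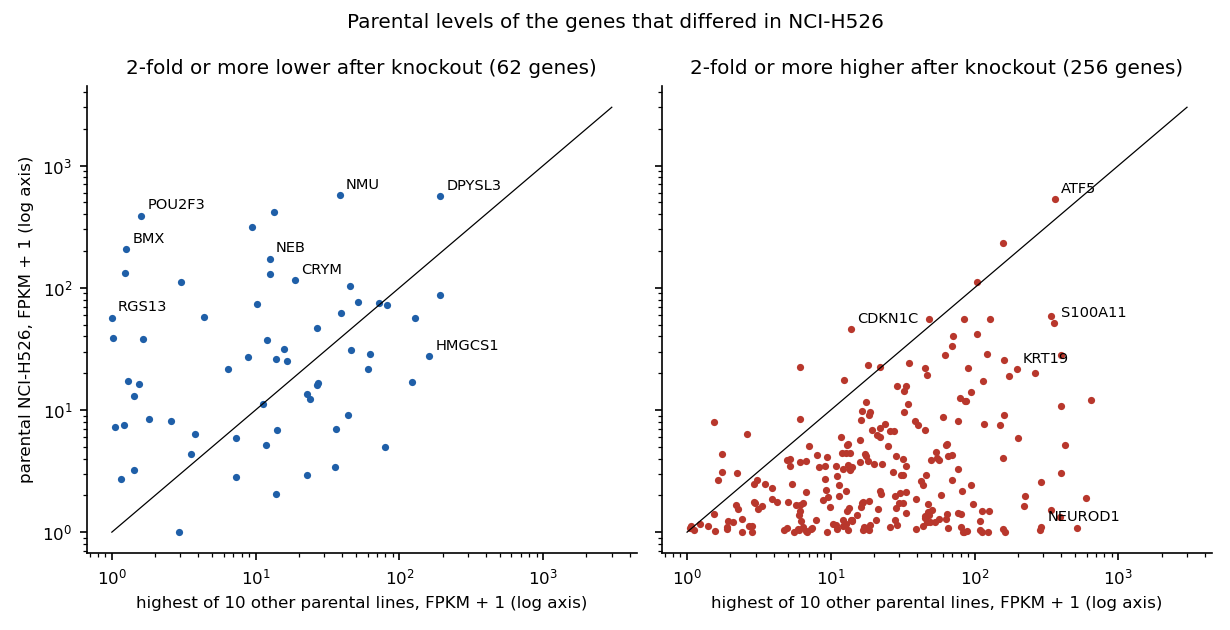
Parental NCI-H526 (y) against the highest of the 10 lines outside the knockout experiment (x), as FPKM + 1 on log axes, for the 62 lower genes (left) and the 256 higher genes (right). The line marks equal levels. On the left 38 of 62 points lie above the line, on the right 18 of 256.

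The same genes were then followed in the other 3 knockout lines, each with its own sgNeg. Harvest was on day 5 in COR-L311 and on day 4 in NCI-H1048 and NCI-H211, so line and day cannot be told apart. Of the 62 lower genes 13 were 2-fold lower in COR-L311 (1.9% of all genes), 15 in NCI-H1048 (0.704%) and 21 in NCI-H211 (4.13%). In all 4 lines there were 3, ALOX5, PSD2 and RGS13, and 31 passed 2-fold in NCI-H526 but in no other line, where 94.0% of all genes were 2-fold lower in none of the 3. Of the 62, 10 were under 1 FPKM in both arms of all 3 other lines (2.18% of all genes), among them NUGGC. These 10 could hardly be lower there. Of the 256 higher genes 73 were 2-fold higher in COR-L311 (2.85% of all genes), 28 in NCI-H1048 (0.664%) and 65 in NCI-H211 (4.37%), 5 in all 4 lines and 50% in no other line, where 92.9% of all genes were 2-fold higher in none of the 3. Of the 256, 35 were under 1 FPKM in both arms of all 3 (2.18% of all genes). Of the lower genes 6 were 2-fold higher in NCI-H211, among them HBEGF, at -1.46 in NCI-H526 and 4.55 in NCI-H211, and GREM1, at -1.53 and 1.73.

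Of the marker genes, POU2F3 itself was lower in each line by unlike amounts. It went from 272 to 218 FPKM in COR-L311 (-0.31), 198 to 60.8 in NCI-H1048 (-1.69) and 307 to 21.3 in NCI-H211 (-3.79). The part of these unlike falls in the counts across lines was not tested. CRYM was lower in each line, from 7.83 to 5.66 FPKM in COR-L311, 93.4 to 8.14 in NCI-H1048 and 23.1 to 2.99 in NCI-H211. COLCA1 was higher in each, from 1.52 to 25.2 FPKM in COR-L311, 6.61 to 41.1 in NCI-H1048 and 0.349 to 1.67 in NCI-H211. NEUROD1 was higher in COR-L311 only, from 0.173 to 13.8 FPKM, while both arms of NCI-H1048 and NCI-H211 list it at 0. CDKN1C differed in sign: COR-L311 went from 46.0 to 239 FPKM and NCI-H1048 from 24.9 to 38.8, but NCI-H211 from 7.36 to 1.41. SCGB1D2 had a difference of 4.97 in COR-L311, close to the 4.56 of NCI-H526, and was at 0.00 in the 2 lines harvested on day 4. NGB was likewise at 3.43 in COR-L311 and at 0.00 and -0.05 in the others. TRPM5 had 78.5 FPKM in the COR-L311 control and 26.1 after knockout, and in NCI-H211 119 and 8.28, whereas in NCI-H526 the knockout column was the higher of the pair.

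**Figure D5:**
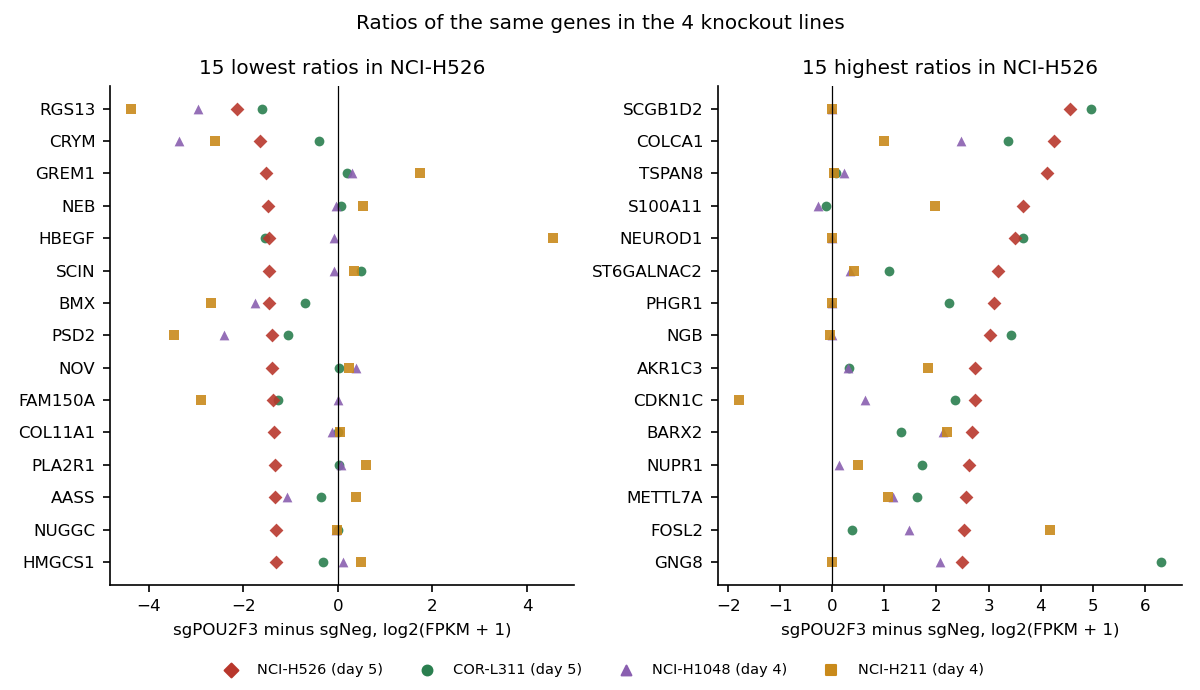
Differences of log2(FPKM + 1), sgPOU2F3 minus sgNeg, for the 15 lowest (left) and 15 highest (right) genes of NCI-H526 in each of the 4 knockout lines. The red diamonds are NCI-H526, whose values chose the genes. RGS13 and PSD2 are left of 0 in all 4 lines, while the TSPAN8 values of the other 3 lines lie between 0.03 and 0.22.

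Whether NCI-H526 differed from the other lines was tested with limma, 1 line against 3, which rests on 2 residual degrees of freedom and assumes that NCI-H526 varies like the others. None of 12506 genes passed a Benjamini-Hochberg adjusted p of 0.05. Genes were taken by the NCI-H526 columns alone, so those low in sgNeg entered through a high sgPOU2F3 value. TSPAN8 had the smallest p. Its difference was 4.13 in NCI-H526, 0.07 in COR-L311, 0.22 in NCI-H1048 and 0.03 in NCI-H211, so that NCI-H526 lay 4.02 above the mean of the others (limma, adjusted p = 0.151, between 0.0537 and 0.9999 over the other settings). The next by p on the higher side were OR51E1, an olfactory receptor (0.0618 to 3.29 FPKM in NCI-H526), F5, coagulation factor V (0.0333 to 2.55 FPKM), TMPRSS4, a membrane serine protease (2.45 to 14.4 FPKM), and ILDR2 (0.957 to 7.05 FPKM). On the lower side they were NEXN, LGALS14, COL11A1, NOV and NUGGC. In COR-L311, NCI-H1048 and NCI-H211 each of these 10 genes stayed within 0.39 of 0, which follows in part from choosing them by p. Apart from NOV, which reached 3.39 FPKM, they were under 1 FPKM in both arms of all 3 lines, and OR51E1 was listed at 0 throughout, so that these lines could hardly show a lower level. Without the FPKM minimum a few genes passed, most of them below that minimum in both NCI-H526 columns. Most were also listed at 0 in both arms of all 3 other lines, where no spread can be seen.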

How the data were processed

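The authors deposited FPKM per gene in 1 table per knockout line and 1 parental table, 5 in all; the labels call the parental values RPKM and the table's name FPKM. TopHat2, Cufflinks, Cuffdiff and the build hg19 are named in the submitters' processing notes, without versions, and how guides were combined or columns scaled is not given in the sources used here. The tables hold no counts. From the steps between low FPKM values, with GENCODE v29 transcript lengths, the depth was estimated as 14.9 M fragments (M, mega) for sgNeg, 28.4 M for the combined sgPOU2F3 column and 29.2 M for parental; 18.3%, 13.8% and 16.3% of genes were listed at 0, so genes near 0 are less well resolved in sgNeg. Intervals were not computed.

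Differences of log2(FPKM + 1) were computed in Python 3.11.15 with pandas 2.3.3, and counted at a size of 1 (2-fold). Ratios of the 4 lines were compared with limma 3.58.1 in R 4.3.3, with a variance trend, tested on simulated data. The design had allowed for a separate column per guide, which the files did not hold. The genes and the 42 lists (965 memberships) were chosen with earlier results of these data known, so they are described by counts and medians, with no test. Over all genes 0.496% were 2-fold lower, 2.05% 2-fold higher and 53.3% below 0. Named genes are the 5 markers, the 15 lowest and 15 highest differences, list members past 2-fold (all where 5 or fewer, otherwise the 5 largest) or the 2 largest where none passed, the 5 in each direction with the smallest limma p, and up to 5 in each direction on the other side of 0 against parental. Other genes were named after their values were seen. Some genes that the rule takes are left out and not reported here. Alternatives were a pseudocount of 0.1, a minimum of 5 FPKM or none, median centring, quantile normalization, the parental baseline and, for limma, leaving out each other line.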

Additional observations from a re-analysis of the deposited data

How the results depend on the processing

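With 1 deposited value per arm, the settings show how far a size moves, not its error. With a pseudocount of 0.1, 125 genes were lower and 439 higher by 2-fold, and past both baselines 46 and 293. With a minimum of 5 FPKM 136 were higher, and 99 past both baselines. Against the parental library, with the minimum applied to that pair, 367 were lower and 527 higher, a higher share of 58.9% against 80.5%, and POU2F3 stood at -0.92. Changes of sign are listed only where the difference against sgNeg was at least 0.25 in size for a list median or 1 for a named gene. With the parental baseline the medians turned for cholesterol genes to 0.60, hypoxia to 0.56, ERBB to 0.079, stress to -0.53 and p53 targets to -0.0017. Single genes turned as well: HMGCS1 0.98, MSMO1 1.74, SCD 0.64, SCIN 0.27, AASS 0.056, NEXN 0.33, OMG 0.48 and TMEM229A 0.44, and CALCA -0.50, SCG5 -0.16, SLC7A11 -0.51, ATF3 -0.13, ATF5 -1.36, TRIB3 -1.56, DDIT3 -0.83, G0S2 -0.59, LOC100129216 -0.41 and GDF15 -0.66. By the same rule median centring and quantile normalization reversed none of the 42 medians or 112 named differences they were run on. With quantile normalization 9 named genes dropped under 2-fold. Medians nearer 0 could change sign, as for voltage-gated ion channels, from 0.085 to -0.057 with quantile normalization. With limma 16 genes passed without a minimum and 0 in each other setting, including leaving out each line (182 to 396 genes at an unadjusted p under 0.05). No paired analysis was possible because the deposited columns combine the 2 guides; fits on each guide alone were not run for the same reason.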

Other observations

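Gene families that stood out only after the values were seen held further higher genes and 0 lower ones, and since they were picked for that, the counts are no evidence about the families. Of 11 secretoglobins, small secreted proteins of glandular epithelia, 4 were taken and 3 were 2-fold higher. SCGB2A1 was at 20.8 FPKM in sgNeg, 82.2 in sgPOU2F3 and 22.3 in parental cells. SCGB1D1 was listed at 0 in both controls and reached 2.85 FPKM, and SCGB1A1 stayed under 1 FPKM in all 3 columns. Of 9 S100 genes taken 4 were higher: beside S100A11 they were S100A16 (0.897, 6.51 and 1.43 FPKM in sgNeg, sgPOU2F3 and parental cells), S100A14 (0.140, 2.28 and 0.0695 FPKM) and S100A2 (0.396, 2.92 and 0.510 FPKM). S100A6 was at 106, 109 and 107 FPKM. TSPAN1 was higher next to TSPAN8, at 0.126, 3.20 and 0.272 FPKM.

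Of the 15 highest genes, 4 are given here with parental lines in which they were abundant. In DMS79 and NCI-H69, in that order, COLCA1 was at 65.5 and 68.3 FPKM, S100A11 at 297 and 358 FPKM, SCGB1D2 at 23.3 and 41.9 FPKM and NGB at 22.3 and 64.1 FPKM. In parental NCI-H526 the same genes were at 3.28, 50.5, 0.126 and 3.22 FPKM. These 4 genes and 2 lines were picked after the values were seen, and other genes among the 15 highest did not share the pattern: TSPAN8 was at 0.0340 and 0.869 FPKM in DMS79 and NCI-H69, AKR1C3 at 0.0632 and 1.66 FPKM and NEUROD1 at 3.12 and 2.66 FPKM.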
